A study of Mus musculus with 32 samples.

Results

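The receptor PPAR gamma (Pparg) and 4 lipid handling genes that it controls in fat cells, Cd36, Fabp4, Lpl and Plin2, were followed through liver RNA of 32 mice to see whether rosiglitazone, a drug that activates the receptor, moved them there. The members were all probe sets (groups of short probes for 1 transcript) whose single gene symbol in the platform annotation was one of these 5 names, which gave 7 of the 12422 probe sets that were not controls, and 5 of the 8251 genes named by 1 symbol. A set of 5 probe sets, 1 for each gene, was bright enough to be tested, and the second probe sets of Cd36 and Lpl are described by their values. Fabp4 was bright enough only with its rosiglitazone arrays counted.

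All mice were males of the hybrid strain B6C3F1, housed singly from 5 months of age, and were killed at 22 months after a 48-hour fast; each Affymetrix MG-U74Av2 array held the liver RNA of 1 mouse, with 4 arrays in each of 8 groups. Controls (CON) ate a defined diet at 93 kcal per week. Metformin (MET), glipizide (GLIP), the pair of these drugs (GM), soy isoflavone extract (SOY) and rosiglitazone (ROS) defined the treated groups, which ate the same amount of that diet with the compound added for 8 weeks from 20 months of age, at doses not analysed here. Long-term calorie restriction (LTCR) was 52.2 kcal per week from 5 months of age, and 8-week restriction (CR8) began at 20 months with 2 weeks at 77 kcal per week and went on with 6 weeks at 52.2.

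PPAR gamma is a nuclear receptor that binds DNA as a dimer with a retinoid X receptor and directs fat cell formation; thiazolidinediones such as rosiglitazone are its ligands and act mainly on adipose tissue. In lean liver Pparg is sparse and the related receptor PPAR alpha governs the response to fasting, whereas fatty liver can gain Pparg and adipocyte transcripts. Cd36 takes up long-chain fatty acids at the cell surface, Lpl hydrolyses the triglyceride of circulating lipoproteins and is made in muscle and fat far more than in adult hepatocytes, Fabp4 binds fatty acids in the cytosol of adipocytes and macrophages, and Plin2 coats lipid droplets in liver and other non-adipose cells.

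The values were intensities that the authors had scaled to a common mean. Array medians lay between 145 and 170 intensity units, and arrays correlated between 0.928 and 0.977. Hepatocyte markers were high in every library, with summed intensities of 9 genes between 127090 and 174400 per array. They were not even across groups. The sum was 129230 to 142730 in CON. It was higher without overlap in LTCR (154690 to 174400), MET (148480 to 155630) and SOY (150550 to 156340). The mean log2 level of these 9 genes, which weights them equally, was 13.346 to 13.455 in CON. It overlapped CON in LTCR (13.412 to 13.592) and MET (13.364 to 13.484), and not in SOY (13.506 to 13.561). In all, 5 arrays, CON 3, CR8 1, CR8 2, ROS 4 and SOY 3, carried skeletal muscle transcripts, defined as a mean log2 level of 19 muscle markers more than 1 above the median of the 32 arrays. Acta1, the skeletal muscle actin, read 7544 in CON 3, 4562 and 5387 in CR8 1 and CR8 2, 10461 in ROS 4 and 2874 in SOY 3, and at most 440 units in any of the other 27 arrays. Of 12 adipocyte markers 9 were on the array; Retn, which encodes resistin, stayed between 14.3 and 39.2 units everywhere, while Adipoq, which encodes adiponectin, ranged from 33.2 in GM 3 to 345 in CON 3. The summed intensity of these 9 ran from 10766 to 20130 in ROS and from 16432 to 18194 in CON, most of it from Car3, which hepatocytes also make. Their mean log2 level, which weights genes equally and includes Cidea, Cidec and Plin4, was highest in ROS (8.17 ± 0.34, SD, n = 4, against 7.87 ± 0.20 in CON). Cidea, Cidec and Plin4 differed from CON by 1.20, 0.59 and 1.42 on that scale, and Adipoq and Retn by 0.06 and 0.13. Aqp7 was lower in ROS (-0.19), as were Lep (10.03 against 10.49 in CON) and Car3 (13.70 against 13.90). In whole tissue, fewer cells of a type and less RNA per cell cannot be told apart.

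**Figure D1:**
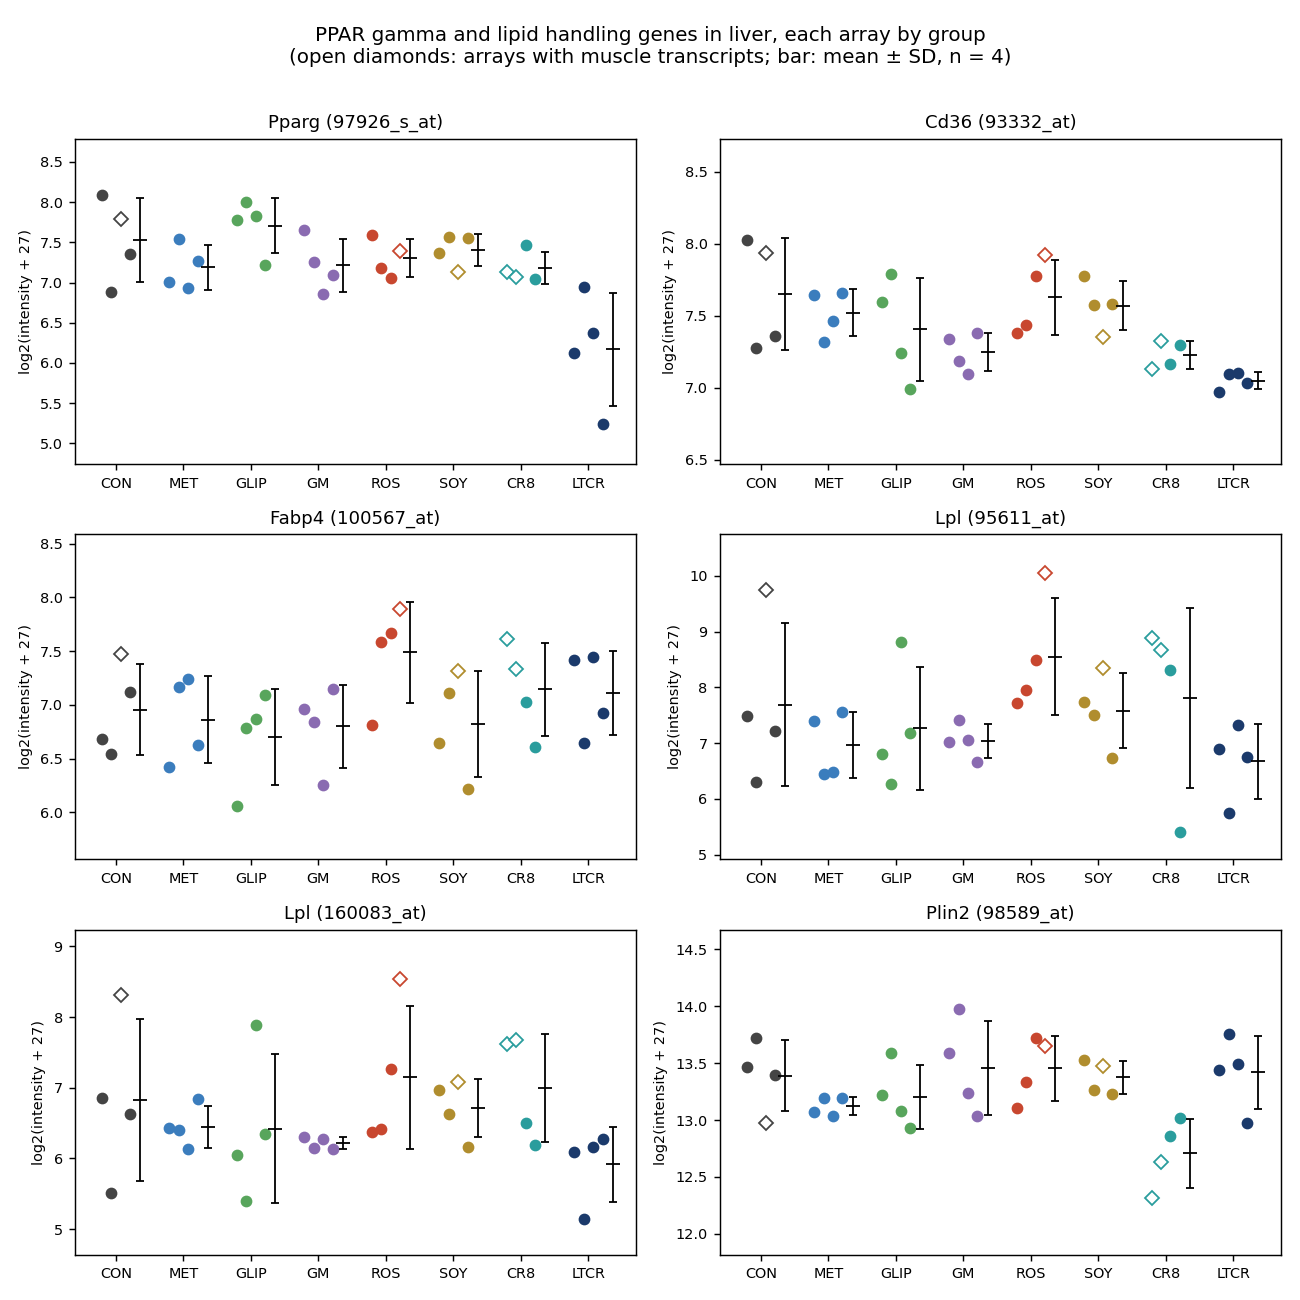
Log2(intensity + 27) of 6 member probe sets (panels) in each array, by group; points are the 4 arrays of a group, open diamonds the 5 arrays with muscle transcripts, and the bar beside them the mean ± SD. Pparg lies lowest in LTCR (10.9 to 95.9 intensity units), Plin2 lowest in CR8, and Lpl is highest in the open diamonds of CON and ROS (832 and 1032 units, probe set 95611_at).

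Rosiglitazone was compared with the control diet to ask whether its receptor's target genes responded in liver. None of the 5 member genes passed the test in ROS: Pparg, Cd36 and Plin2 differed from CON by between -0.22 and 0.06 on the log2 scale, and Fabp4 and Lpl had higher means (0.53 ± 0.30 and 0.86 ± 0.67, SE) with arrays that overlapped. All tests here are limma's moderated test on log2(intensity + 27), fitted over all 7357 tested probe sets and 8 groups, with Benjamini-Hochberg adjustment and a threshold of 0.05. In that comparison 0.136% of all tested probe sets were called, so a count of 0 among 5 is no departure from the background. Long-term restriction differed from the control diet in more of the transcriptome, with 19.3% of probe sets called (11.8% called lower), and there Pparg and Cd36 were lower. Of 9 tested hepatocyte markers 5 were called higher and 2 lower in LTCR, beside that 19.3%. Macrophage markers and genes of the cholangiocyte list were lower there too, with counts of calls that stand beside the 11.8%. Of 12 tested Kupffer cell and macrophage markers 11 had a negative difference in LTCR (median -0.52), and 2 were called lower, Mpeg1 (-1.17 ± 0.29, limma adjusted p = 0.00426) and Cd14 (-0.63 ± 0.18, limma adjusted p = 0.0111). The summed intensity of the 16 such markers on the array was 3376 to 4986 in LTCR and 5609 to 7063 in CON, without overlap; CR8 had 3612 to 5705, and 0 of 12 markers with a positive difference (median -0.41, 0 called). Of 3 tested genes on the cholangiocyte list, Krt8 and Krt18 were called lower in LTCR, and the list's median was -1.02. Whether these 2 keratins mark cholangiocytes in whole liver was not tested. The list's median was also below 0 in the other groups against CON. It was -0.67 in ROS, -0.61 in CR8 and -0.43 in MET, with 1 gene called lower in each of these and 0 in GLIP, GM and SOY. Of 5 tested adipocyte markers 3 had a positive difference in LTCR and 1 was called lower, Car3, which hepatocytes also make. Car3 read 3228 to 6763 units in LTCR and 14487 to 15939 in CON (limma adjusted p at most 0.00031 with 1 array left out). The part of hepatocytes, macrophages, cholangiocytes and fat cells in the members' levels was not tested.

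Pparg, the receptor itself, was measured by 1 probe set (97926_s_at). Its intensities were 245, 90.8, 194 and 137 in CON and 165, 119, 106 and 141 in ROS. The ROS arrays lay within the range of the CON arrays, and the difference was -0.22 ± 0.27 (SE; 95% CI -0.77 to 0.33; limma adjusted p = 0.906). In MET the arrays read 102, 160, 95.3 and 128, in GLIP 193, 230, 201 and 122, in GM 174, 126, 89.3 and 110, and in SOY 138, 162, 113 and 160. All of these overlapped CON, as did CR8 with 113, 108, 150 and 104. LTCR stood lowest with 42.8, 95.9, 55.6 and 10.9. LTCR 1, 3 and 4 lay below every other array of the series, and LTCR 2 lay just above CON 2 and within the range of MET, GM and CON. Pparg was lower in LTCR than in CON by a log2 difference of -1.36 ± 0.27, or 2.56-fold on that scale (limma adjusted p = 0.00058; 0.00013 to 0.0045 with any 1 array left out). The LTCR mean of 51.3 ± 35.2 units (SD, n = 4) is dim, 1 of its arrays is below the 27 units added before the log, and the scale understates changes so low; CON had 167 ± 67.1.

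The 2 restricted groups were compared directly, a test in which 12% of probe sets were called. Pparg was lower in LTCR than in CR8 by -1.01 ± 0.27 (limma adjusted p = 0.0138), and the arrays did not overlap. The call ended without LTCR 4, the dimmest array (-0.70, limma adjusted p = 0.0804), without the arrays with muscle transcripts (-1.08 ± 0.35, limma adjusted p = 0.0702) and in a fit to these groups alone (limma adjusted p = 0.111). Ordered by mean log2 level the groups ran GLIP, CON, SOY, ROS, GM, MET, CR8 and LTCR. Each neighbouring pair overlapped and was closer than the larger SD of the pair, except CR8 and LTCR, whose gap of 1.01 exceeded the LTCR SD of 0.71.

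Cd36, the fatty acid translocase, read 234, 128, 218 and 138 in CON and 140, 146, 192 and 216 in ROS (probe set 93332_at). The ROS arrays filled the same range as CON, with a difference of -0.02 ± 0.17 (SE; 95% CI -0.38 to 0.33; limma adjusted p = 0.990); its sign turned with 1 array left out, to at most 0.10. MET had 174, 133, 149 and 175, GLIP 167, 194, 124 and 100, GM 135, 119, 110 and 139, and SOY 192, 164, 137 and 165. CR8 had 113, 133, 117 and 130, and LTCR had 98.5, 110, 110 and 104. All 4 LTCR arrays lay below all CON, ROS, MET, SOY and CR8 arrays, and their SD of 5.66 units was the narrowest of the 8 groups. Cd36 was lower in LTCR than in CON by -0.60 ± 0.17, or 1.52-fold (limma adjusted p = 0.0138). The call ended without CON 1 (-0.47, limma adjusted p = 0.0727), without CON 3 (-0.505, limma adjusted p = 0.0630), without the 5 arrays with muscle transcripts (-0.505 ± 0.19, limma adjusted p = 0.0746) and in a fit to LTCR and CON alone (limma adjusted p = 0.0760). In CR8, where 0.544% of probe sets were called, Cd36 differed from CON by -0.42 ± 0.17 (limma adjusted p = 0.309), and LTCR differed from CR8 by -0.18 ± 0.17 (limma adjusted p = 0.547). The order of mean levels was CON, ROS, SOY, MET, GLIP, GM, CR8 and LTCR, and of the neighbouring pairs CR8 and LTCR alone did not overlap, with a gap of 0.18. The second Cd36 probe set, 161704_r_at, read from 1.0 to 4.5 units in all 32 arrays and gave no information on the gene.

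The sequences just upstream of the Pparg and Cd36 transcript starts are shown because both genes were lower in LTCR. They are RefSeq promoter windows on build GRCm38.p6, the 250 bases before the start, 5′ to 3′ in the direction of the gene, for 2 of 3 Pparg starts (chr6:115360894-115361143 and chr6:115362099-115362348, plus strand) and for Cd36 (chr5:17835897-17836146, minus strand). Capitals mark AGGTCA, the sequence that one receptor of a dimer contacts, on either strand.
Pparg start 1: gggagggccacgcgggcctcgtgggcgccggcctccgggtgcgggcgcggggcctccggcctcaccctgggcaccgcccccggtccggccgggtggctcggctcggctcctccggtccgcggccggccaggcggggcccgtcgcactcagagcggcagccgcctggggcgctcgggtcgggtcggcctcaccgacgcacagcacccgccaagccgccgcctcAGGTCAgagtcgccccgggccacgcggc
Pparg start 2: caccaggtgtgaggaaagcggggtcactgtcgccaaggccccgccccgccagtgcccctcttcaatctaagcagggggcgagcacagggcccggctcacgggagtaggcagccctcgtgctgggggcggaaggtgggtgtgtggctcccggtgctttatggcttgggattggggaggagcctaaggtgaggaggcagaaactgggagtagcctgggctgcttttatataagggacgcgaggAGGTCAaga
Cd36: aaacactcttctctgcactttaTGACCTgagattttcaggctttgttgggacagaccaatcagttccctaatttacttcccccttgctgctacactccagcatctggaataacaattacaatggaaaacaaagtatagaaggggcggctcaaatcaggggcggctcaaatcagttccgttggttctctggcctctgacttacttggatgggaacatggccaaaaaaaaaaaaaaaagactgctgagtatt
The match stood at positions -28 to -23 and -9 to -4 from the Pparg starts, and at -228 to -223 from the Cd36 start on the other strand (as TGACCT). The third Pparg window (chr6:115421816-115422065) had no match, and the Plin2 window (chr4:86670060-86670309, minus strand) had one at -218 to -213. Of 32851 RefSeq promoter windows, each 250 bases before to 50 after a start, 16.3% hold AGGTCA on either strand, and each match by itself is a description of letters. The element that PPAR and retinoid X receptor dimers bind joins such repeats with 1 base between them; AGGTCANAGGTCA was found in none of these windows on either strand and in 0.0396% of all windows, and AGGNCANAGGNCA, which contains the former, also in none of these and in 0.381% of all. Windows for Fabp4, Lpl and Cidea were not used here.

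Lpl, lipoprotein lipase, was measured by probe sets 95611_at, which was tested, and 160083_at, which was too dim. On 95611_at CON read 151, 52.0, 832 and 122, and ROS read 183, 220, 332 and 1032. All 4 ROS arrays exceeded the other 3 CON arrays, and CON 3 exceeded 3 of the ROS arrays. The mean difference was 0.86 ± 0.67 (SE; 95% CI -0.51 to 2.23; limma adjusted p = 0.834). CON 3 and ROS 4, the highest arrays, both carried muscle transcripts; without the 5 such arrays the difference was 1.05 ± 0.60 (limma adjusted p = 0.873), and with the muscle level as a covariate it was 0.75 ± 0.50 (limma adjusted p = 0.772). The second probe set read 88.6, 18.6, 290 and 72.4 in CON and 56.2, 58.8, 127 and 344 in ROS. Its ROS arrays did not stand above CON (0.32 ± 0.50, limma adjusted p = 0.980 in a fit without the filter, in which 0.0725% of probe sets were called). Both probe sets correlated over the 32 arrays (r = 0.91), as a description.

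Lpl read 444, 378, 289 and 15.6 in CR8 and 187, 155, 300 and 79.7 in SOY on 95611_at. Its CR8 arrays were widely spread, with both muscle arrays highest in the group and CR8 4 the lowest of all 32. In GLIP it read 84.1, 49.8, 424 and 119, so that GLIP 3 was high with an Acta1 level of 38.1 units. GM had 103, 143, 106 and 73.7, MET 142, 60.3, 62.0 and 161, and LTCR 91.5, 26.4, 133 and 80.2. LTCR had the lowest mean on both probe sets, at -1.01 ± 0.67 against CON (limma adjusted p = 0.317), and at -0.33 ± 0.56 without the muscle arrays (limma adjusted p = 0.764). Against CR8 the difference was -1.14 ± 0.67 (limma adjusted p = 0.280); it passed the test only without CR8 4 (-1.94, limma adjusted p = 0.0468). Over the 32 arrays the correlation of Lpl with the muscle marker level was 0.70, and over the 27 arrays without muscle transcripts it was -0.05.

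**Figure D2:**
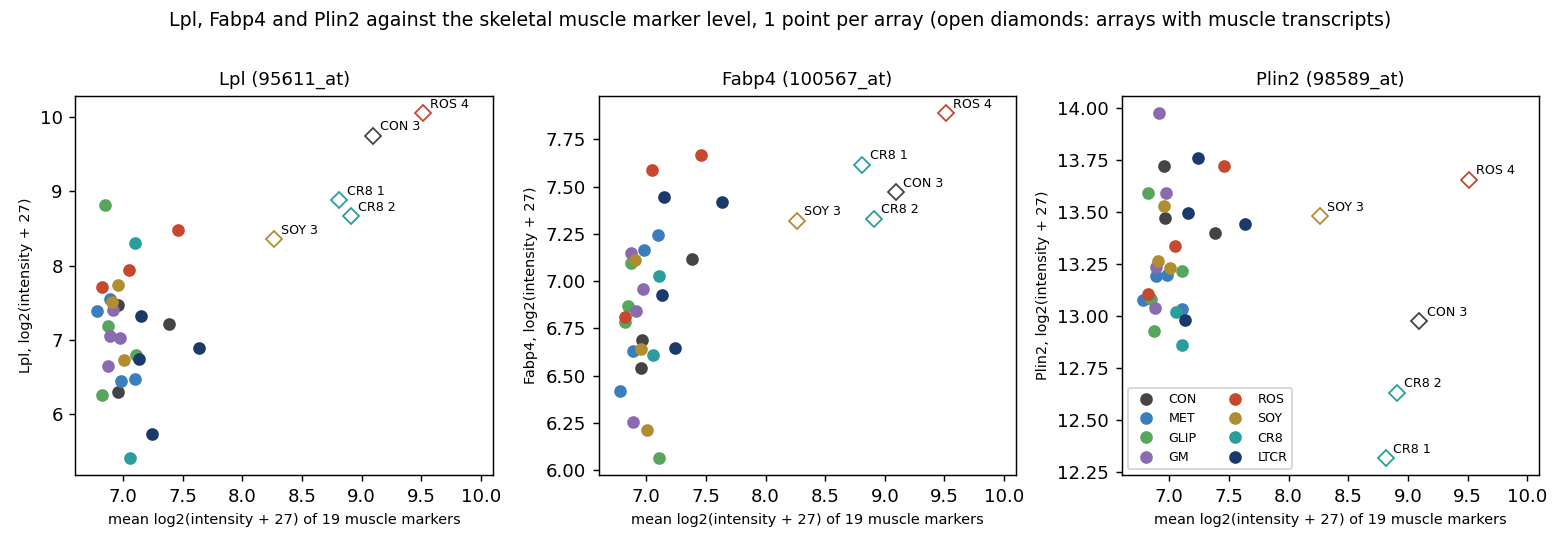
Level of Lpl, Fabp4 and Plin2 as log2(intensity + 27) (vertical axes) against the mean log2 level of 19 skeletal muscle markers (horizontal axes), 1 point per array coloured by group; open diamonds are the 5 arrays with muscle transcripts. Lpl and Fabp4 lie high in those arrays (r = 0.70 and 0.62 over 32 arrays), and Plin2 does not (r = -0.23).

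Fabp4, the adipocyte fatty acid binding protein, read 76.1, 66.2, 150 and 112 in CON and 85.4, 166, 177 and 210 in ROS. ROS 2, 3 and 4 were above all CON arrays and ROS 1 was among them. The difference was 0.53 ± 0.30 (SE; 95% CI -0.08 to 1.15; limma adjusted p = 0.686), and it was 0.57 ± 0.33 without the muscle arrays. MET had 58.6, 117, 124 and 72.0, GLIP 39.9, 83.1, 89.7 and 110, GM 97.4, 87.7, 49.4 and 115, and SOY 72.9, 111, 133 and 47.3. In CR8 the arrays read 169, 134, 103 and 70.6, and in LTCR 144, 73.2, 147 and 94.7. The order of mean levels was ROS, CR8, LTCR, CON, MET, SOY, GM and GLIP, and each neighbouring pair overlapped. Without the ROS arrays the mean level of Fabp4 lay below the brightness filter, so it was tested only through the group where it was highest. Fabp4 correlated with the muscle marker level (r = 0.62 over 32 arrays and 0.45 over the 27 without muscle transcripts); the part of muscle or of fat attached to the tissue in its level was not tested.

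Plin2, the lipid droplet coat protein, was bright in every library. It read 11321, 13447, 8019 and 10778 in CON and 8770, 10323, 13467 and 12855 in ROS, the same range (0.06 ± 0.19; 95% CI -0.32 to 0.45; limma adjusted p = 0.974). Without the muscle arrays the sign turned, to -0.14 ± 0.21. MET had 8588, 9364, 8361 and 9315, GLIP 9485, 12296, 8639 and 7767, GM 12307, 16049, 9611 and 8365, SOY 11769, 9809, 11375 and 9586, and LTCR 11093, 13824, 11521 and 8038. CR8 was lowest with 5068, 6309, 7409 and 8281; 3 of its arrays lay below all CON arrays and CR8 4 just above CON 3. Plin2 differed from CON by -0.68 ± 0.19 in CR8, which missed the threshold (limma adjusted p = 0.0886) and passed it without CON 3 (-0.82, limma adjusted p = 0.0341). The lowest CR8 arrays, 1 and 2, carried muscle transcripts, and without the muscle arrays the difference was -0.59 ± 0.23 (limma adjusted p = 0.301).

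Plin2 was higher in LTCR than in CR8 by 0.71 ± 0.19, or 1.64-fold (limma adjusted p = 0.0134). LTCR 4 fell among the CR8 arrays, and the other 3 LTCR arrays lay above all 4 of them. The call ended without CR8 1 (0.58, limma adjusted p = 0.0587), without LTCR 2 (0.598, limma adjusted p = 0.0573) and without the muscle arrays (0.48 ± 0.22, limma adjusted p = 0.203). LTCR and CON were alike in range (0.03 ± 0.19; 95% CI -0.36 to 0.42; limma adjusted p = 0.947), a difference whose sign turned with quantile normalization and without the muscle arrays. By mean level the groups ran GM, ROS, LTCR, CON, SOY, GLIP, MET and CR8, and of the neighbouring pairs MET and CR8 alone did not overlap, with a gap of 0.42.

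**Figure D3:**
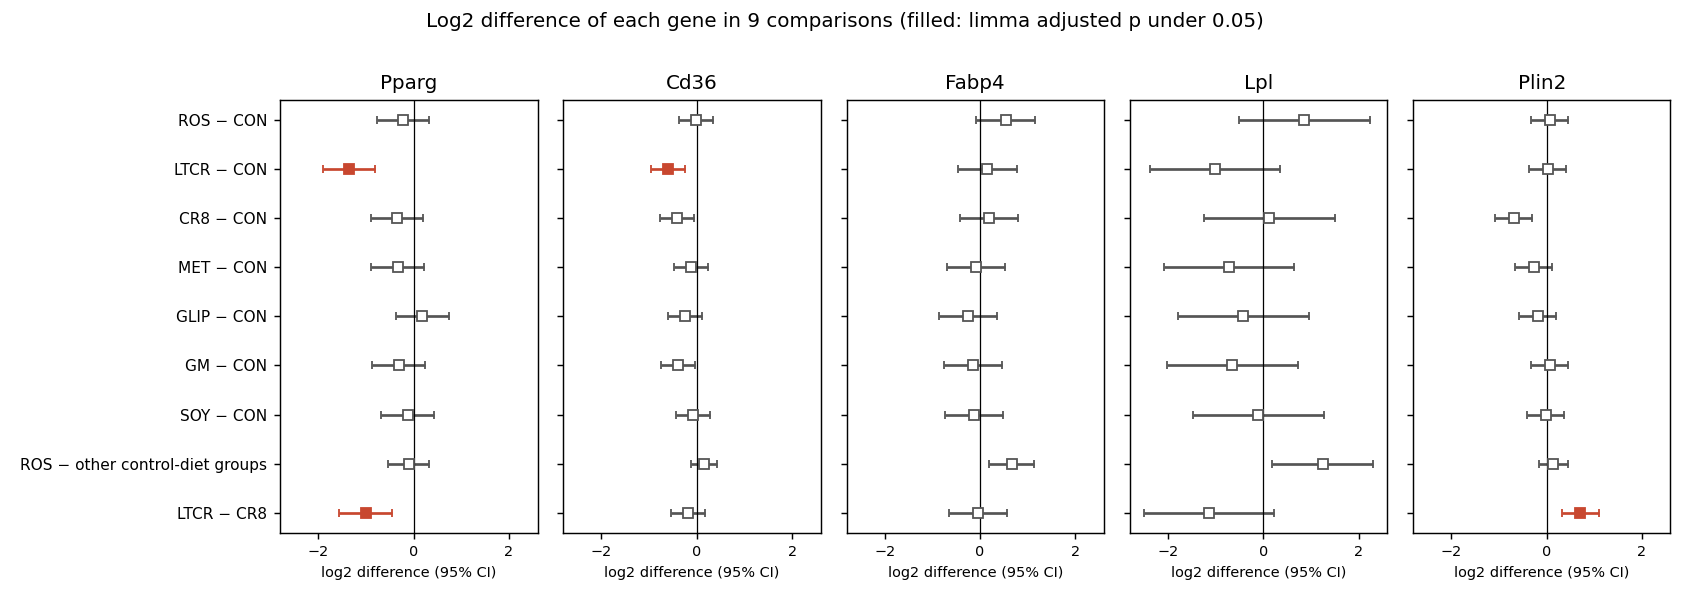
Log2 difference of the 5 tested member probe sets (panels) in 9 comparisons (rows), with 95% confidence intervals that are not adjusted for multiple tests; filled red squares passed limma's test at an adjusted p of 0.05. The filled squares are Pparg and Cd36 in LTCR against CON (-1.36 and -0.60) and Pparg and Plin2 in LTCR against CR8 (-1.01 and 0.71).

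The ROS arrays were also compared with the mean of the 5 other groups on the control diet, which adds arrays but mixes treatments. In this comparison 0.476% of probe sets were called, and none of the 5 members was. Fabp4 was nearest, at 0.66 ± 0.23 (limma adjusted p = 0.228), and Lpl was at 1.24 ± 0.52 (limma adjusted p = 0.355). With the muscle level as a covariate Fabp4 and Lpl were at 0.46 ± 0.21 and 0.67 ± 0.40. Fabp4 passed the brightness filter only with its ROS arrays counted, so its place here is not independent of the ROS values. With no filter its limma adjusted p was 0.300. Cd36 (0.15 ± 0.13), Plin2 (0.14 ± 0.15) and Pparg (-0.10 ± 0.21) lay nearer 0.

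Other adipocyte targets of PPAR gamma were read from a list of 30, of which 22 were on the array and 16 were tested; 0 rose and 0 fell in ROS, against the 0.136% called among all probe sets, and the median difference was 0.07, against 0.0011 for all tested. Plin4, a droplet coat protein of white fat, had the smallest p of the tested genes. It read 84.1, 50.9, 99.9 and 97.7 in CON and 307, 116, 384 and 333 in ROS, without overlap, yet with a difference of 1.42 ± 0.52 it did not pass (limma adjusted p = 0.408). MET 2 and SOY 2 reached 278 and 294, and LTCR had 153, 263, 243 and 313, also above all CON arrays (1.28 ± 0.52, limma adjusted p = 0.0811; 0.00604 in a fit to LTCR and CON alone). Adipoq read 77.8, 74.0, 171 and 192 in ROS, inside the CON range of 58.1 to 345 (0.06 ± 0.38, limma adjusted p = 0.987), a sign that turned with the muscle level as a covariate.

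Cidea and Cidec, which enlarge lipid droplets and are members of the same list, fell below the brightness filter and were picked out after their values were seen. Cidea read 99.8, 44.1, 204 and 55.4 in CON and 194, 96.5, 374 and 411 in ROS. ROS 3 and ROS 4 were the brightest arrays of the series for it, ROS 1 was exceeded only by CON 3 outside its own group, and ROS 2 lay within CON. MET 2 and SOY 2, bright for Plin4, read 178 and 193. Cidec read 3.3, 23.1, 12.7 and 4.7 in CON and 34.8, 7.3, 47.2 and 35.1 in ROS. ROS 1, 3 and 4 lay above the rest of the 32 arrays, which were all under 27 units, and ROS 2 was at their level. Against CON neither passed without the filter (Cidea 1.20 ± 0.44, limma adjusted p = 0.524; Cidec 0.59 ± 0.17, limma adjusted p = 0.311), and Cidec passed only without ROS 2 (0.823, limma adjusted p = 0.0154); its difference was 0.246 to 1.5 over the other settings. Against the 5 other control-diet groups, with no filter, 0.33% of probe sets were called, and both were: Cidea was higher by 1.51 ± 0.34 (limma adjusted p = 0.0452) and Cidec by 0.68 ± 0.13 (limma adjusted p = 0.0306).

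The Cidea call ended in 23 of 32 alternatives and the Cidec call in 7. Leaving out 1 array moved the adjusted p of Cidea between 0.00893 and 0.255, highest without ROS 4, and that of Cidec between 0.000153 and 0.171, highest without ROS 3. It was lowest without MET 2 for Cidea and without ROS 2 for Cidec. Without the muscle arrays Cidea was at 1.28 ± 0.37 (limma adjusted p = 0.243) and Cidec at 0.62 ± 0.15 (limma adjusted p = 0.166). Within ROS, array 2 was lowest for Cidea, Cidec, Plin4 and Adipoq (74.0 units), and ROS 3 and ROS 4, highest for Cidea, were also highest for Adipoq (171 and 192). Other adipocyte markers did not share this order. Retn and Lep were highest in ROS 2 (39.2 and 1469 units). Car3 was lowest in ROS 1 (9154) and highest in ROS 3 and ROS 4 (17591 and 16682). ROS 1 had 77.8 units of Adipoq with 194 of Cidea, and CON 3, the brightest array for Adipoq, had 204 of Cidea. The part of attached fat in these levels was not tested.

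**Figure D4:**
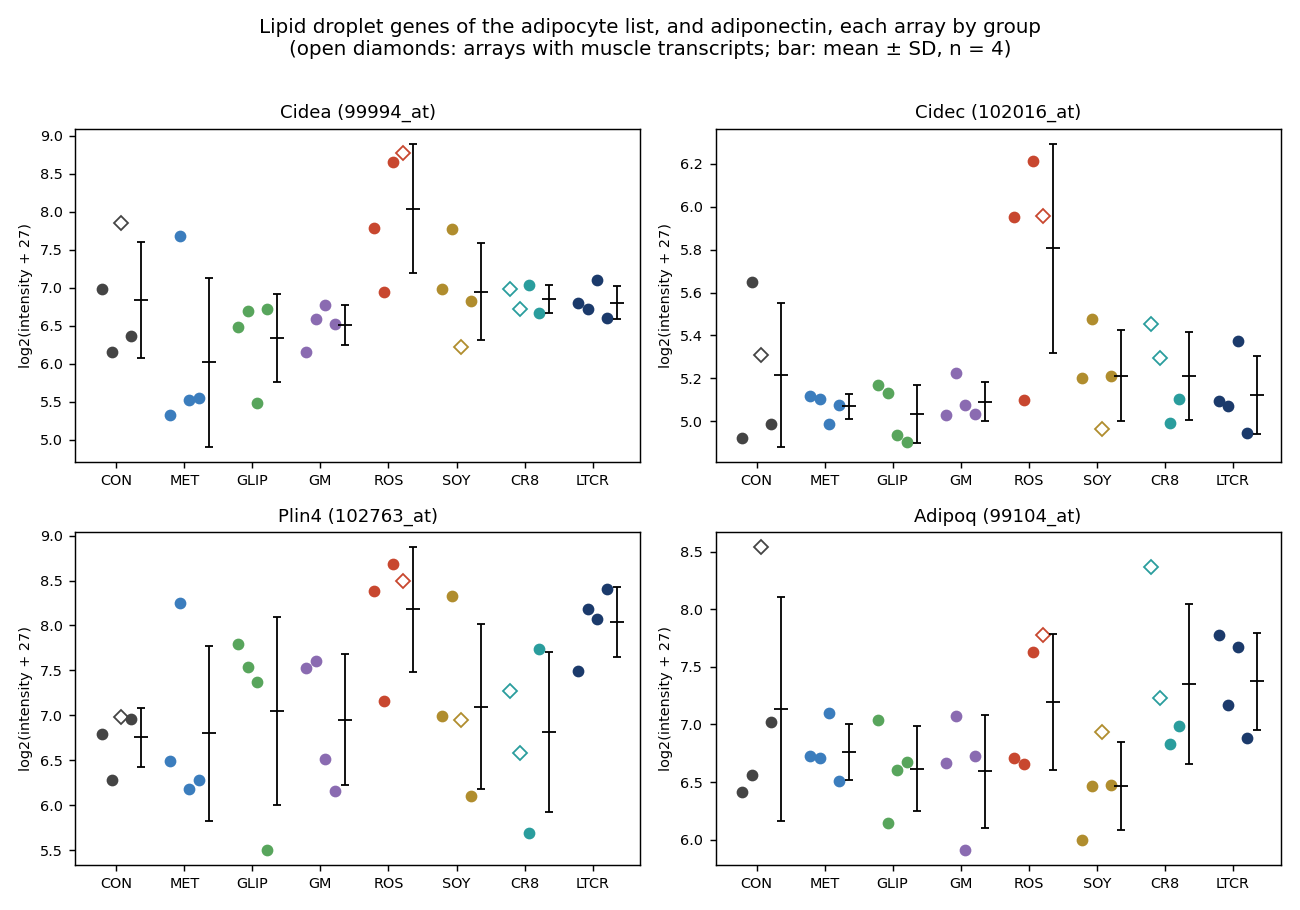
Log2(intensity + 27) of Cidea, Cidec, Plin4 and Adipoq (panels) in each array by group; points are arrays, open diamonds the 5 arrays with muscle transcripts, bars the mean ± SD of 4 arrays. ROS 1, 3 and 4 stand high for Cidea (194 to 411 units), Cidec (34.8 to 47.2) and Plin4 (307 to 384), and ROS does not stand apart for Adipoq.

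The partners of the receptor gave no call in ROS: of 20 listed dimer partners and coregulators, 16 were on the array and 13 tested, with 0 higher and 0 lower. Rxra, which encodes the retinoid X receptor that pairs with PPARs, read 1415, 1585, 1083 and 1346 in CON and 1826, 1592, 1577 and 1536 in ROS. ROS 1 and ROS 2 lay above all CON arrays, and the difference was 0.27 ± 0.10 (limma adjusted p = 0.459). In LTCR 2 of the 13 rose and 1 fell, near the 19.3% called among all probe sets. Rxra rose by 0.39 ± 0.10 (limma adjusted p = 0.0085; 0.0582 without CON 3), Cebpa, a transcription factor of hepatocytes and adipocytes, by 0.39 ± 0.10 (limma adjusted p = 0.00596), and Crebbp, a histone acetyltransferase, fell by 1.13 ± 0.30 (limma adjusted p = 0.00815; 0.0613 without LTCR 4). Quantile normalization ended the Cebpa call (0.25 ± 0.10, limma adjusted p = 0.0699).

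Genes of fatty acid uptake, binding and activation were covered by 14 tested genes. In ROS 0 rose and 0 fell, with Slc27a4, a fatty acid transporter, nearest at 0.46 ± 0.15 (limma adjusted p = 0.281). In LTCR 4 of the 14 rose and 1 fell, beside 19.3% called among all. Got2, an aminotransferase also described as a plasma membrane fatty acid binding protein, rose by 0.36 ± 0.08 (limma adjusted p = 0.0028), Scarb1, the HDL receptor, by 0.52 ± 0.12 (limma adjusted p = 0.00285), and Slc27a5, the liver bile acid and fatty acid ligase, by 0.47 ± 0.12 (limma adjusted p = 0.00665). Fabp2, the intestinal type fatty acid binding protein, fell by 0.65 ± 0.14 (limma adjusted p = 0.00126), with LTCR arrays of 1386 to 1632 units below the CON arrays of 2221 to 2544. These 4 calls held with any 1 array left out, and that of Slc27a4, which also rose, did not (0.44 ± 0.15, limma adjusted p = 0.0350; 0.136 without CON 4).

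Lipases and the cofactors of lipoprotein lipase were represented by 11 tested genes, of which 0 changed in ROS, while 2 rose and 1 fell in LTCR (19.3% of all probe sets called). Angptl4, a fasting-induced inhibitor of Lpl that is a target of several PPARs, read 816, 819, 639 and 883 in CON and 1813, 1646, 1649 and 1141 in LTCR. It rose by 0.95 ± 0.20, or 1.93-fold, without overlap (limma adjusted p = 0.00109; at most 0.00673 with 1 array left out). In ROS it read 797, 924, 1047 and 1027, a difference of 0.26 ± 0.20 that did not pass (limma adjusted p = 0.834). Apoc1, an apolipoprotein that restrains lipolysis, rose by 0.23 ± 0.07 in LTCR (limma adjusted p = 0.0265; 0.0694 without LTCR 4), which quantile normalization turned to -0.04, and Apoc2, the activator of Lpl, fell by 0.34 ± 0.11 (limma adjusted p = 0.0307; 0.123 without CON 1).

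For lipid droplet coats and triglyceride synthesis, 11 genes were tested; 0 changed in ROS, and 2 rose and 0 fell in LTCR, where 19.3% of all were called. These were Lpin1 (1.20 ± 0.20, limma adjusted p = 9.26e-05) and Lpin2 (0.57 ± 0.16, limma adjusted p = 0.0121), phosphatidate phosphatases that make diacylglycerol. Of the 16 tested adipocyte targets, 2 rose and 0 fell in LTCR: Angptl4 and Pck1, the gluconeogenic enzyme that also serves glycerol synthesis (0.71 ± 0.14, limma adjusted p = 0.000742). Among 20 tested targets of PPAR alpha, 0 changed in ROS. In LTCR 4 rose and 2 fell, Angptl4, Hadhb (0.37 ± 0.11; limma adjusted p = 0.0193, and 0.0633 without LTCR 1), a beta-oxidation enzyme, and Acot1 (1.49 ± 0.49; limma adjusted p = 0.0296, and 0.0866 without LTCR 1), an acyl-CoA thioesterase, among those that rose. Vnn1, a pantetheinase, fell by 0.97 ± 0.26 (limma adjusted p = 0.00789). Counts of 2 in 16 and 6 in 20 stand beside the same 19.3%. Of the named LTCR calls, those of Angptl4, Got2, Scarb1, Slc27a5, Fabp2, Lpin1, Pck1, Vnn1 and Car3 held in each of 18 alternatives. The call ended in 1 alternative for Cebpa, Crebbp and Lpin2, 3 for Rxra, 5 for Hadhb, 7 for Apoc2 and Acot1, 8 for Slc27a4 and 9 for Apoc1. Median differences in LTCR ran from -0.07 for the uptake genes to 0.25 for the adipocyte targets, beside 0.0044 for all tested probe sets.

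**Figure D5:**
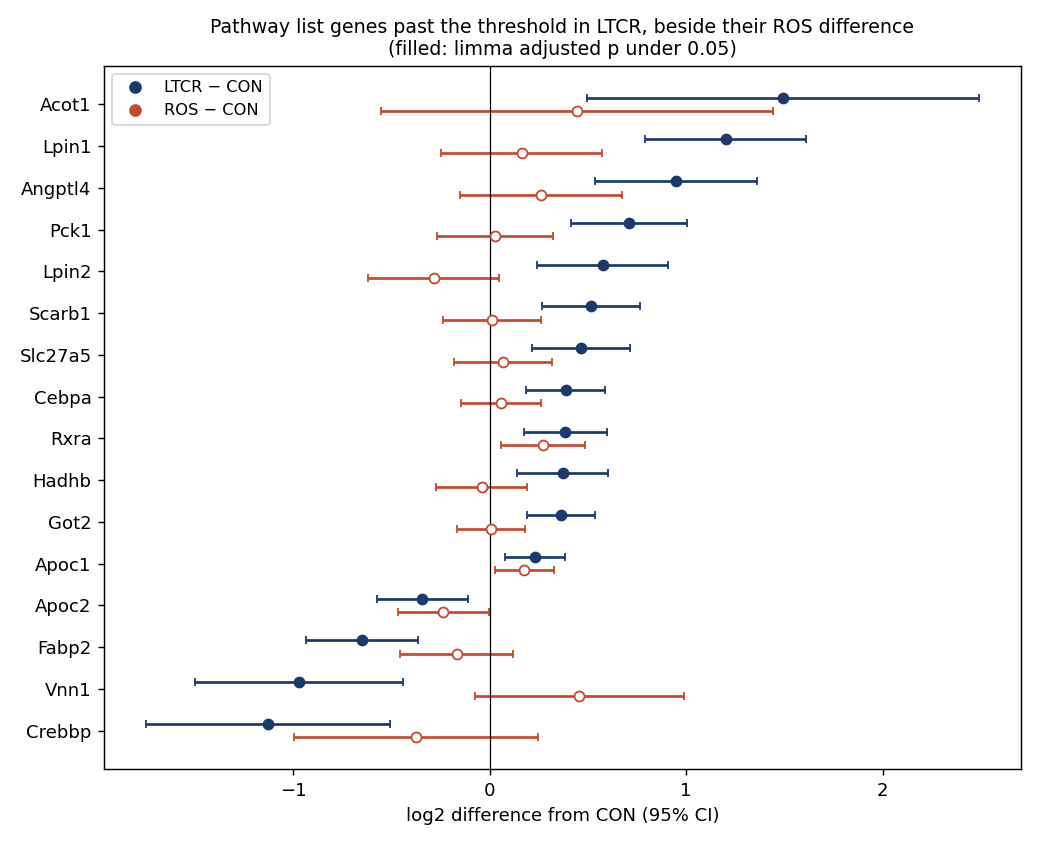
Log2 difference from CON with unadjusted 95% confidence intervals for the pathway genes with the smallest p among those past the threshold in LTCR (blue), with the ROS difference of the same gene (red); filled points passed limma's test at an adjusted p of 0.05. Both comparisons use the same 4 CON arrays, and no red point is filled; Lpin1 stands at 1.20 and Crebbp at -1.13 in LTCR.

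In the other drug groups none of the 5 members was called against CON. Among all probe sets 4.17% were called in MET, 0.136% in GLIP, 1.55% in GM and 0% in SOY, where limma gave 601 probe sets an unadjusted p under 0.05. The largest member difference there with an interval that excluded 0 was that of Cd36 in GM (-0.40 ± 0.17; 95% CI -0.76 to -0.05; limma adjusted p = 0.217). Lpl ranged from -0.72 ± 0.67 in MET to -0.10 ± 0.67 in SOY, Pparg from -0.34 ± 0.27 in MET to 0.18 ± 0.27 in GLIP, Fabp4 from -0.25 ± 0.30 in GLIP to -0.09 ± 0.30 in MET, and Plin2 from -0.27 ± 0.19 in MET to 0.07 ± 0.19 in GM. The 95% interval of Lpl in MET reached from -2.09 to 0.65, which is too wide to tell a large fall from none.

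Some genes of the lists around the members were called in MET, where 4.17% of all probe sets were called. Cebpa rose in MET by 0.47 ± 0.10 (limma adjusted p = 0.00781) and Rxra by 0.41 ± 0.10 (limma adjusted p = 0.0256; 0.108 without CON 3), which were the 2 calls among the 13 partners. Dbi, the acyl-CoA binding protein, rose by 0.73 ± 0.16 (limma adjusted p = 0.00832), the 1 call among 14 uptake and binding genes. Of 11 lipase and cofactor genes 2 rose, Apoc1 (0.32 ± 0.07, limma adjusted p = 0.0131) and Lipa, the lysosomal acid lipase (0.56 ± 0.16, limma adjusted p = 0.0404; 0.125 without CON 3); quantile normalization left Apoc1 at 0.05 ± 0.06. Of 20 PPAR alpha targets 2 fell, Cyp4a10, a fatty acid hydroxylase (-0.66 ± 0.17, limma adjusted p = 0.0244; 0.0889 without MET 1) and Acadl, a fatty acid dehydrogenase (-0.48 ± 0.12, limma adjusted p = 0.0256; 0.0988 without MET 3). In a fit to MET and CON alone all 7 of these calls ended, with limma adjusted p from 0.0589 (Apoc1) to 0.139 (Dbi). With both drugs, in GM, Slc27a4 was the 1 call in the 6 lists (0.76 ± 0.15, limma adjusted p = 0.0132; 0.0564 without CON 4).

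The genes whose levels ran most like each member were found by Pearson correlation over the 32 arrays among tested probe sets, as a description; arrays share groups and, for some, muscle transcripts. For Lpl these were Slc25a4 (r = 0.76), Tnnc2 (0.74), Acta1 (0.72), Cox6a2 (0.72) and Arpc5 (0.70), of which Tnnc2 and Acta1 are on the muscle marker list. Fabp4 ran most like Cib1 (0.69), Adipoq (0.65), Fhl1 (0.64), Slc25a4 (0.62) and Atp2a1 (0.62). Of these, Atp2a1 is on the muscle marker list and Adipoq on the adipocyte marker list. Cd36 ran most like Fabp2 (0.69), 4931406C07Rik (0.68), Fabp1 (0.67), Rtn4 (0.67) and Car3 (0.66). With group means removed these were 0.40, 0.52, 0.58, 0.33 and 0.35. Pparg ran most like Lin7c (0.76), Tm7sf3 (0.75), the interferon-induced Isg15 (0.75), Hnrnpk (0.74) and Wwtr1 (0.73). With group means removed its correlation with Isg15 was 0.19 and with Wwtr1 0.64. Plin2 ran most like Grpel2 (0.75), Rtf2 (0.74), Hsdl2 (0.70), Ldha (0.60) and Tgoln1 (0.59), and with group means removed these were 0.68, 0.63, 0.73, 0.54 and 0.24.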

How the data were processed

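Liver RNA of 32 mice was measured on 1-colour arrays, and 1 table held all of them. The authors deposited linear intensity values, 1 per probe set and array, already scaled by them, as the table shows: a mean that leaves out 2% of values at each end was 500.4 to 500.5 in every column. Software, background correction, detection calls, scan dates and batches are not given in the sources used here. Of 12488 probe sets 66 were controls and left out. Symbols came from the platform annotation, which gave 1 symbol for 10833 probe sets, several for 396 and none for 1193; genes in lists were read from their brightest probe set.

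Values were taken as log2(intensity + 27), 27 being the 20th percentile of all intensities. Probe sets were tested where the mean of these log2 values exceeded that of an intensity of 94.2, the 40th percentile, which left 7357. Differences were fitted with limma 3.58.1 in R 4.3.3 (lmFit, eBayes with a trend) in 1 fit over 8 groups with 24 residual degrees of freedom, tested on simulated data. Errors of differences are SE and those of intensities SD. The labels give 1 array per mouse, and the number of arrays limits the precision. The members and lists were chosen with earlier results of these data known. Named list genes were those past the threshold in a comparison, up to 4 per list by smallest p, and otherwise the 2 with the smallest p in ROS; Cidea and Cidec fall outside this rule. Alternatives were quantile normalization, equal medians, other added values and filters, the compared groups alone, the replicate number as a block, no muscle arrays, and each array left out; the muscle level as a covariate was chosen after seeing the data. Promoter windows were RefSeq's.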

Additional observations from a re-analysis of the deposited data

Results flagged for a closer look

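The second Cd36 probe set had 1 LTCR array, at 4.5 intensity units, far from the other 3, in a group where every value was near 0. The Lpl level of CON 3, 831.8 units on probe set 95611_at, stood far above the other 3 control arrays; CON 3 is an array with muscle transcripts. These are 2 of 56 groups of 4 arrays checked, and chance alone marks about 1 in 20 such groups.

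Both restricted groups were set against each other by a test of the difference itself. Pparg differed between them by -1.01 (LTCR minus CR8), and Plin2 by 0.712. Both calls ended when single arrays were left out, LTCR 4 for Pparg and CR8 1 or LTCR 2 for Plin2.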

How the results depend on the processing

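The array number limits what can be said of dim genes: Pparg in LTCR, Cidec, and both second probe sets lie near the added value, where log2 differences shrink. Pparg was called lower in LTCR against CON under every alternative that gave it a value; the strict filter at the 60th percentile kept Plin2 alone among the members and gave no value for the other 4.

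Members called in LTCR against CON numbered 0 of 1 tested with the strict filter, 1 in a fit to the compared groups alone and 1 without the muscle arrays, and from 1 to 2 with 1 array left out. In LTCR against CR8 they numbered 1 of 1 with the strict filter, 1 with the compared groups alone and 0 without the muscle arrays, and from 1 to 3 with 1 array left out; in CR8 against CON they numbered from 0 to 1.

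All probe sets called, with the compared groups alone, numbered 5 in ROS, 16 in CR8, 33 in MET and 4 in GM against CON, and 488 in LTCR against CR8. Without the muscle arrays they numbered 95 in MET, 2 in GLIP, 33 in GM, 423 in LTCR against CR8 and 10 in ROS against the other control-diet groups. Equal medians gave 6 in GLIP, 432 in GM and 113 in ROS against the other control-diet groups. With no filter they numbered 6 in GLIP and 57 in GM, and with the muscle level as a covariate 61 in GM. With 1 array left out they ran from 4 to 12 in ROS, 11 to 68 in CR8, 140 to 234 in MET, 1 to 11 in GLIP, 28 to 112 in GM and 0 to 1 in SOY against CON, from 9 to 58 in ROS against the other control-diet groups, and from 572 to 949 in LTCR against CR8.

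The replicate numbers do not pair the arrays: deviations of same-numbered arrays had a median correlation of -0.0063, and 8 of 32 arrays correlated best with their own number. The replicate block gave 4 calls in GLIP and 13 in ROS against the other control-diet groups. With it Pparg in LTCR against CON had a limma adjusted p of 0.000727, and Cidea in ROS against the other control-diet groups one of 0.0705. Angptl4 was called higher in LTCR than in CR8, a call that held in 5 alternatives and ended in 13. Its limma adjusted p was 0.0544 with the replicate block and reached 0.188 in another setting.

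Of the differences that changed sign, Apoc1 in LTCR alone was called. Without the muscle arrays they became -0.14 (Plin2, ROS), -0.11 (Plin2, LTCR), -0.14 (Lpl, CR8), 0.0816 (Fabp4, MET), 0.27 (Lpl, GLIP), 0.019 (Fabp4, GM), 0.037 (Lpl, GM), -0.071 (Plin2, GM), 0.0513 (Pparg, SOY), 0.0887 (Cd36, SOY), 0.33 (Lpl, SOY) and 0.29 (Fabp4, LTCR against CR8). With the muscle level as a covariate they became -0.24 (Lpl, CR8), 0.14 (Fabp4, MET), 0.26 (Lpl, GLIP), 0.0839 (Fabp4, GM), 0.0276 (Lpl, GM), 0.21 (Lpl, SOY), 0.20 (Fabp4, LTCR against CR8) and -0.00688 (Adipoq, ROS). Quantile normalization gave -0.0925 (Plin2, LTCR), -0.0277 (Plin2, GM), 0.0196 (Cd36, SOY), 0.00425 (Lpl, SOY) and -0.0447 (Apoc1, LTCR). Equal medians gave 0.0212 (Cd36, SOY) and 0.101 (Plin2, SOY), and an added value of 1 gave -0.00544 (Lpl, CR8). The cause was not tested.

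With 1 array left out, the differences that turned ran from -0.147 to 0.104 for Cd36, -0.0758 to 0.18 for Plin2 and -0.183 to 0.527 for Adipoq in ROS, -0.111 to 0.174 for Plin2 in LTCR, -0.332 to 0.929 for Lpl in CR8, and -0.228 to 0.0816 for Fabp4 in MET. In GLIP they ran from -0.0338 to 0.369 for Pparg and -0.937 to 0.267 for Lpl. In GM they ran from -0.29 to 0.0292 for Fabp4, -1.11 to 0.037 for Lpl and -0.104 to 0.209 for Plin2. In SOY they ran from -0.34 to 0.0626 for Pparg, -0.205 to 0.0468 for Cd36, -0.299 to 0.0692 for Fabp4, -0.562 to 0.585 for Lpl and -0.155 to 0.0932 for Plin2. Fabp4 in LTCR against CR8 ran from -0.215 to 0.12.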
